A study of Mus musculus with 8 samples.

Results

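Hilar mossy cells are the glutamatergic interneurons of the dentate gyrus. They receive the thorny synapses of dentate granule cell (DGC) axons and send their own axons back to granule cells, largely along the length of the hippocampus. They are therefore, with CA3 pyramidal cells, a principal target of the granule cells. In this study, mossy cells were the nuclei that carry the deposited cell type name MC in the single nucleus RNAseq (snRNAseq) of adult mouse hippocampus. There were 186 such nuclei among 29425, or 0.632%: 27 and 89 in the 2 mutant mice and 38 and 32 in the 2 control mice.

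The mutants were Gfap-Cre;Wlsfl/- mice, with 1 floxed and 1 null allele of Wls, which codes for a chaperone that cells need to secrete Wnt proteins. The controls were Gfap-Cre;Wlsfl/+ mice, which carry the same Cre transgene and keep 1 functional Wls copy. Gfap-Cre acts in cortical progenitors of neurons and glia, so that the deletion is not specific to mossy cells or to the dentate gyrus. Each snRNAseq library held the nuclei of both hippocampi of 1 male mouse, and bulk RNAseq of whole hippocampus was available from 2 libraries of each genotype. The level of Wls in mossy nuclei could not check the genotype. They held 0 and 7 Wls UMIs in the mutants and 2 and 1 in the controls, and a 3' tag can lie outside the deleted part of the gene. In bulk tissue Wls was at 3.67 and 6.87 counts per 1000000 (CPM) in the mutants and 13.2 and 13.03 CPM in the controls (log2 fold change -1.31 ± 0.30 SE, edgeR FDR 0.117).

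Depth was unequal. The mossy nuclei summed to 186587 and 932532 unique molecular identifiers (UMIs) in mutants 1 and 2 and to 410860 and 553024 in controls 1 and 2. The median nucleus held 5560 and 9598 UMIs in the mutants and 10391.5 and 16644.5 in the controls. Mutant 1 stands apart as the thinnest library, with the fewest and shallowest mossy nuclei. No mossy nucleus held fewer than 1000 UMIs, and 2 of the 186 carried a barcode also seen in another library. Granule cells were 1.70% and 4.43% of nuclei in the mutants and 36.1% and 27.9% in the controls, which is the loss that defines the model. Each comparison sets 2 mutant against 2 control mice, where an exact permutation test of a single value cannot go below p = 0.33.

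The 4 markers given for the label were each highest in the MC nuclei among the 21 deposited types, which is a description, since the deposited types were made from the same nuclei. Csf2rb2, a subunit of a cytokine receptor, held 53.6 and 82.6 CPM in mutants and 114 and 90.4 CPM in controls, 14.1 times the mean level of the next type. Its sample order was control 1, control 2, mutant 2, mutant 1. Cpne9, a calcium-dependent phospholipid-binding protein, was at 113 and 203 CPM in mutants and 202 and 212 CPM in controls, with a ratio of 4.61 to the next type, CA3. Tmem132c, a membrane protein, was at 172 and 350 CPM in mutants and 139 and 174 CPM in controls, with a ratio of 3.04. Glra3, an alpha subunit of the glycine receptor, was at 209 and 144 CPM in mutants and 75.5 and 132 CPM in controls, with a ratio of 2.04. The next type of Tmem132c and that of Glra3 carry a deposited inhibitory neuron name, which was not checked here. The 4 markers thus did not lean one way between genotypes. At an unadjusted p below 0.05 (edgeR quasi-likelihood), 2 of the 4 were higher in mutants and 0 lower, against 6.09% and 4.62% of all genes tested. All 4 remained highest in mossy nuclei whichever single mouse was left out. The mossy nuclei also transcribed Slc17a7, the vesicular glutamate transporter of forebrain excitatory neurons, at 225 to 313 CPM, whereas the GABA synthesis genes Gad1 and Gad2 were at 2.43 to 10.9 CPM in every sample and Prox1, the granule cell transcription factor, at 0 to 7.23 CPM.

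**Figure D1:**
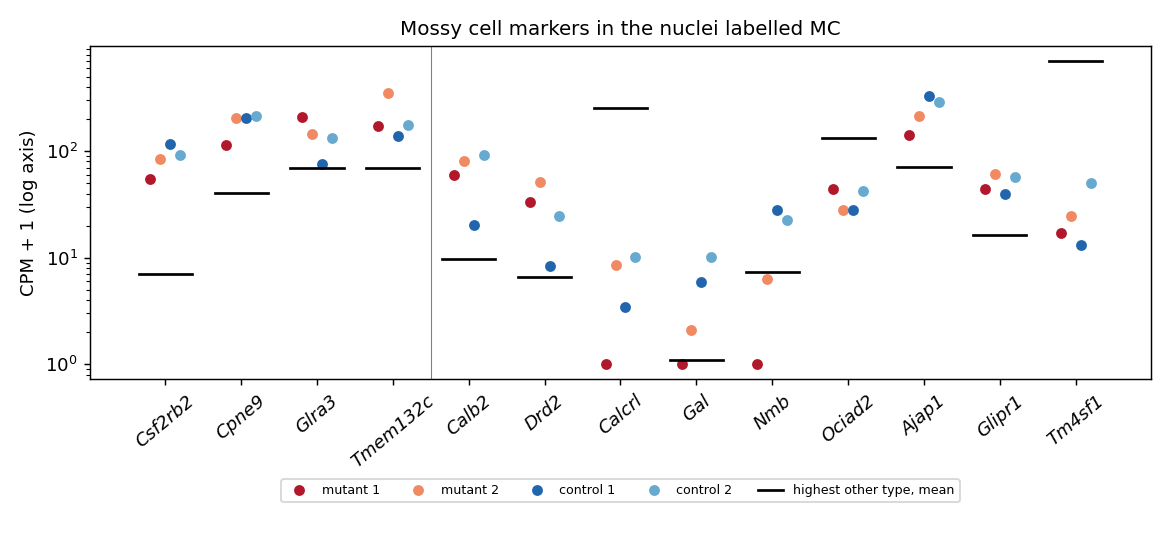
CPM + 1 on a log axis in the MC nuclei of each mouse (coloured points, 2 mutants and 2 controls) for the 4 markers that define the label (left of the line) and 9 further mossy cell genes, with a black bar at the mean level in the highest other deposited type. Points lie above the bar for all 4 label markers, and below it for Calcrl, Ociad2 and Tm4sf1.

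Of 9 further mossy cell genes, 6 were also highest in these nuclei: Calb2 (calretinin, the protein used to stain mossy cells in mice), the dopamine receptor gene Drd2, Ajap1, Glipr1 and the peptide genes Gal and Nmb. Calb2 was at 59.0 and 80.4 CPM in mutants and 19.5 and 90.4 CPM in controls, 7.16 times the next type. The control values thus span those of the mutants. Drd2 was at 32.2 and 50.4 CPM in mutants and 7.30 and 23.5 CPM in controls, 5.04 times the next type. Calcrl, Ociad2 and Tm4sf1 were higher in other types, in 9, 11 and 3 of them respectively. Gal, coding for galanin, was barely sampled: 0 and 1 UMI in the mutants, and 2 and 5 in the controls.

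Among the 20 genes with the highest ratio of mossy cell level to that of the next type were 2 long non-coding RNAs, Gm32647 (ratio 6.14) and 4930467D21Rik (3.61), with Naa11 (3.79), Trpc7 (3.04), a cation channel, and the transcription factor gene Onecut2 (2.01). These ratios describe the nuclei from which the label was made and carry no test. Tmem132cos, the antisense transcript of Tmem132c, had a ratio of 3.84. Whether the deposited counting used the strand is not given in the sources used here, so that its reads may not be separable from those of Tmem132c. Gm32647 was level across mice, at 6924, 6873, 7501 and 6139 CPM in mutant 1, mutant 2, control 1 and control 2, with a log2 difference of 0.04 ± 0.13 SE.

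How many mossy cells there were in the mutants was the first comparison. Mossy nuclei were 0.509% and 0.851% of all nuclei in the mutants and 0.587% and 0.445% in the controls, so the 2 groups overlap. The mutant share was 0.40 ± 0.55 (SE) higher on the log2 scale. This did not pass the test (edgeR quasi-likelihood on nuclei per type, FDR 0.811 over 21 types, of which 0% passed). At -3.38 ± 0.73, the granule cell share did not pass either (FDR 0.181). With 2 mice in a group, not passing therefore says little about the number of mossy cells. The sign of the mossy cell difference depended on the denominator, because granule cell nuclei make up part of the total. Among nuclei other than granule cells, the shares were 0.518%, 0.890%, 0.919% and 0.617% in mutant 1, mutant 2, control 1 and control 2, and the difference was -0.12 ± 0.60. For each CA3 nucleus there were 0.0740 and 0.0820 mossy nuclei in mutants and 0.0814 and 0.0573 in controls. Relative to granule cells the ratio was 0.30 and 0.192 mossy nuclei per granule nucleus in mutants, against 0.0163 and 0.0159 in controls.

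**Figure D2:**
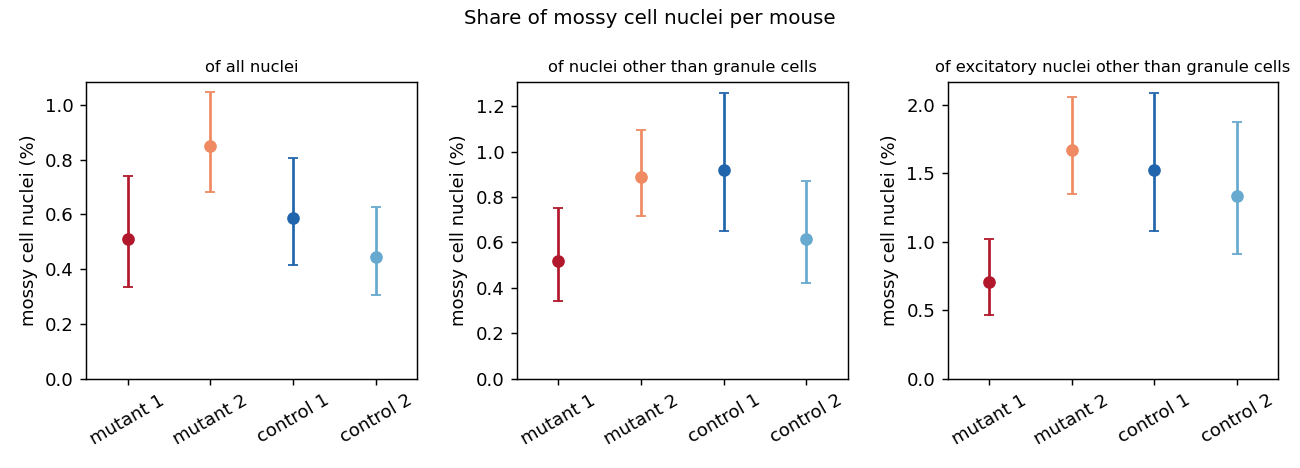
Mossy cell nuclei as a percent of all nuclei, of nuclei other than granule cells and of excitatory nuclei other than granule cells, in each of 2 mutant and 2 control mice. Points are the share and bars its 95% exact binomial interval, which covers counting error only. Mutant 1 is the lowest point where granule cells are left out, and mutant 2 lies above both controls among all nuclei and among excitatory nuclei.

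Gene expression was compared in the sums of mossy nuclei per mouse, over 7289 genes. In mutant mossy cells 32 genes were higher and 11 lower at more than 2-fold and FDR below 0.05 (edgeR quasi-likelihood test with Benjamini-Hochberg adjustment). These are 0.439% and 0.151% of the genes tested, together 0.59%. At an unadjusted p below 0.05, 6.09% of genes were higher and 4.62% lower (10.7% in all). All 43 had both mutants outside the control range, but so did 40.6% of all genes tested. None of the 11 mossy cell markers that could be tested passed, and none of the 20 mossy-enriched genes did except AC121788.1, whose ratio to the next type fell to 0.873 with 1 mouse left out. The calls depend on single mice: without mutant 2, which holds most of the mutant mossy nuclei, 0 genes passed (188 higher and 258 lower at more than 2-fold and an unadjusted p below 0.05), without mutant 1 there were 17, without control 1 77, and without control 2 153. DESeq2 called 17. No call changed direction in any of these fits.

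Kirrel3 showed the clearest rise among genes of the granule cell synapse. It codes for a homophilic adhesion protein of the immunoglobulin superfamily that takes part in synapses of granule cell axons, and lies on the plus strand at chr9:34485894-35036716 (mm10). It held 57 and 390 UMIs in the mutants and 5 and 38 in the controls, that is, 305 and 418 CPM against 12.2 and 68.7 CPM. Both mutants lie above both controls. The log2 difference was 3.13 ± 0.42 (FDR 0.00586, 8.73-fold). It was 30.1-fold without control 2 and 5.52-fold without control 1, and it did not pass without mutant 2 (FDR 0.114), with DESeq2 (adjusted p 0.196) or with possible doublets left out (FDR 0.151). Kirrel3 UMIs were found in 48.1% and 71.9% of mutant nuclei and in 13.2% and 43.8% of control nuclei, and, with each nucleus thinned to 2000 UMIs, in 29.6% and 43.8% against 0% and 9.38%. In microglia, 2.86% to 7.69% of nuclei held a Kirrel3 UMI unthinned, at a median of 1632 to 2434 UMIs per nucleus. It was the only one of 20 tested genes of this synapse to pass. At an unadjusted p below 0.05, 5 of the 20 were higher and 0 lower, against 6.09% and 4.62% of all genes tested. The median log2 difference over the 20 was 0.33, against -0.00 over all genes, and Ptprd, Lrrtm4 and Gpr158, which code for adhesion partners and a receptor, had log2 differences of 0.64 (FDR 0.195), 0.68 (FDR 0.351) and 0.46 (FDR 0.421).

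Shisa9, an auxiliary subunit of AMPA-type glutamate receptors, held 102 and 146 CPM in mutants and 2.43 and 27.1 CPM in controls. The difference was 3.01 ± 0.49 on the log2 scale (FDR 0.0185), and the groups do not overlap. It was 8.07-fold, but 49.3-fold without control 2 and 4.91-fold without control 1. It did not pass without mutant 2 (FDR 0.270) or with possible doublets left out (FDR 0.240), and DESeq2 gave it no adjusted p. It was the only one of 28 tested glutamate receptor genes and auxiliary subunits to pass. Grik1 and Grin3a differed by 2.15 (FDR 0.181) and 1.93 (FDR 0.163), while the median over the list was 0.07. None of 14 tested GABA and glycine receptor genes passed: Gabra5 was at 69.7 and 60.1 CPM in mutants and 12.2 and 28.9 CPM in controls, with a difference of 1.57 ± 0.43 (FDR 0.139). Among the 36 tested genes of a list of ion channels, Kcnn3, a calcium-activated potassium channel of small conductance, passed alone. The list does not hold every channel gene: Asic2, a channel gene outside it, also passed (FDR 0.00586) and is described below. Kcnn3 was at 64.3 and 91.2 against 17.0 and 30.7 CPM (1.76 ± 0.38, FDR 0.0495). It did not pass without mutant 1, mutant 2 or control 1 (differences of 1.91, 1.41 and 1.46). Nor did it pass with possible doublets left out (2.55, FDR 0.173).

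Etv1, coding for an ETS transcription factor, was at 123 and 86.9 CPM in mutants and at 2.43 and 23.5 CPM in controls, from 23, 81, 1 and 13 UMIs. The log2 difference was 2.80 ± 0.51 (FDR 0.0270, 6.94-fold). It was 37.0-fold without control 2 and 4.25-fold without control 1. It did not pass without mutant 1 (FDR 0.0564), without mutant 2 (FDR 0.141) or with possible doublets left out (FDR 0.180), and DESeq2 gave it no adjusted p. Etv1 UMIs were in 44.4% and 49.4% of mutant and 2.63% and 31.2% of control mossy nuclei, and in 13.3% to 21.6% of microglia nuclei, which are shallower. It was the only one of 11 tested genes from a list that marks dorsal or ventral hippocampus to pass. At an unadjusted p below 0.05, 6 of the 11 were higher and 1 lower, against 6.09% and 4.62% of all genes tested. Their median log2 difference was 0.65. The teneurin genes on that list, which code for adhesion molecules used in wiring, differed by 0.38 to 0.99 with FDR from 0.0687 (Tenm2) to 0.413 (Tenm4). Nrp1, the semaphorin and VEGF co-receptor, was at 370 and 408 CPM in mutants and 105 and 199 CPM in controls (1.37 ± 0.28, FDR 0.0455). It passed with DESeq2 (adjusted p 0.0249), and not without mutant 1 (FDR 0.0824), mutant 2 (FDR 0.351) or control 1 (FDR 0.0972). With possible doublets left out, Nrp1 did not pass either (1.08, FDR 0.321). Nrp1 alone passed among 35 tested axon guidance genes, of which 8 were higher and 4 lower at an unadjusted p below 0.05. The ligand genes Slit3 (1.23, FDR 0.0594) and Slit2 (0.88, FDR 0.102) lay above both controls in both mutants without passing. So did the netrin receptor gene Unc5d (1.05, FDR 0.0676). In either direction, 25 of the 35 genes had both mutants outside the control range, as did 40.6% of all genes tested.

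The 11 genes that fell were led by Vcan. It codes for versican, a large proteoglycan of the extracellular matrix that oligodendrocyte precursors (OPC) also transcribe. No Vcan UMI was found in the mossy nuclei of either mutant, against 20 and 14 in the controls (FDR 0.0218). It did not pass without mutant 2 (FDR 0.488) or control 2 (FDR 0.0622), and DESeq2 gave it no adjusted p. It was removed by the filter on low counts without control 1, with possible doublets left out, and without 1 control 2 nucleus rich in inhibitory markers. Set against a limit of 3 UMIs over both mutants together, Vcan was at least 13.2-fold lower. In the controls, Vcan was in 28.9% and 15.6% of nuclei, and in oligodendrocytes, with other depths, in 0% to 0.875%. In the mutants it was in 0 of 27 and 0 of 89 nuclei, which allows shares of up to 11.1% and 3.37% of nuclei with a Vcan UMI. These limits cover counting error only and do not bound the share of nuclei that express Vcan, and the mutant nuclei were shallower. With each nucleus thinned to 2000 UMIs, the control shares were 5.26% and 3.13%. Vcan was at 898 CPM in OPC and at 7.06 CPM in CA3, while the other OPC markers were near 0 in the mossy nuclei, with 1 UMI of Pdgfra and 3 of Cspg4 over all 4 mice. The summed level of the 3 markers was 0 and 2.14 CPM in mutants and 51.1 and 27.1 CPM in controls. Osbpl3, an oxysterol-binding protein, fell from 60.9 and 43.4 CPM in controls to 10.7 and 9.65 CPM in mutants (-2.33 ± 0.48, FDR 0.0455). Crispld1 was at 350 and 327 CPM in controls and 129 and 83.6 CPM in mutants (-1.76 ± 0.28, FDR 0.0141). Stard5, a sterol-binding protein, and Cpm, a membrane carboxypeptidase, fell by 1.38 ± 0.28 (FDR 0.0455) and 2.03 ± 0.34 (FDR 0.0185) on the log2 scale. Crispld1 and Cpm passed without any 1 mouse except mutant 2 (FDR 0.270 and 0.334), whereas with 1 mouse left out Osbpl3 and Stard5 passed only in the fit without control 2. The remaining falls were Gm16161, AC121788.1, Raver2, Haghl, Mad1l1 and 9530059O14Rik.

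**Figure D3:**
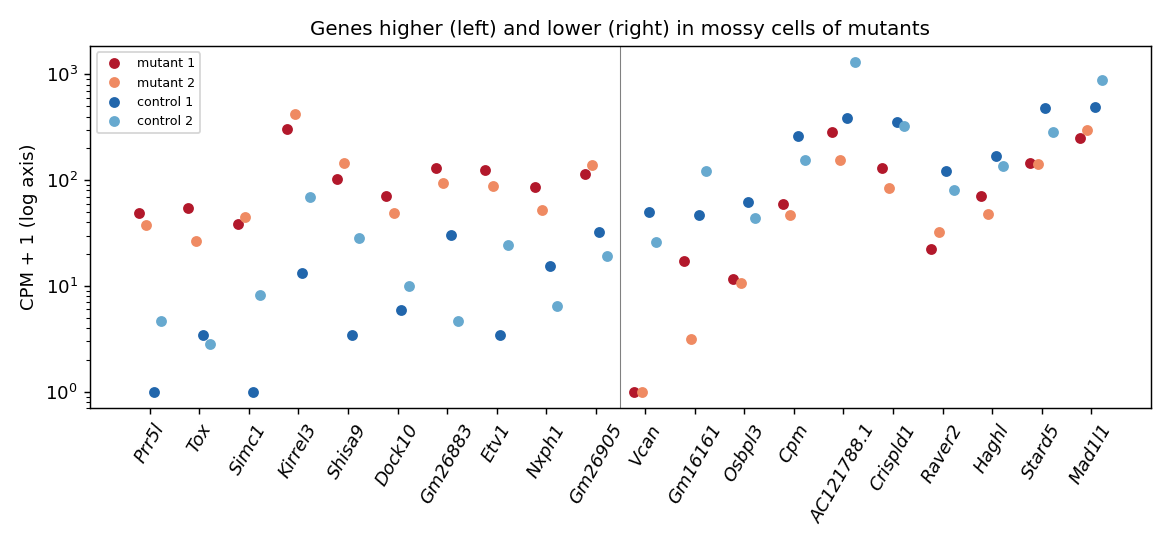
CPM + 1 on a log axis in mossy nuclei of each mouse, for the 10 genes with the largest rise (left of the line) and the 10 with the largest fall (right) among the 43 that passed. In all 20 genes both mutant points lie on one side of both control points; Vcan is at 0 CPM in both mutants.

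The promoters of 3 genes whose levels changed are shown because the TCF/LEF family, through which Wnt signals reach genes, binds DNA with the core CTTTGA, or TCAAAG on the other strand, in capitals here. Each is the 250 bases before the first listed RefSeq start (GRCm38.p6, 5' to 3' on the gene's strand): Vcan at chr13:89742513-89742762, minus strand, Etv1 at chr12:38779832-38780081, plus strand, and Nrp1 at chr8:128358823-128359072, plus strand.
Vcan: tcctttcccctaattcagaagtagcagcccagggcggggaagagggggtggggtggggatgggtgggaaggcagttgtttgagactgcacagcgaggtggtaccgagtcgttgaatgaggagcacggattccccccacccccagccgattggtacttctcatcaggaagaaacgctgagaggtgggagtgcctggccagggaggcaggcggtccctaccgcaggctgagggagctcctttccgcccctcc
Etv1: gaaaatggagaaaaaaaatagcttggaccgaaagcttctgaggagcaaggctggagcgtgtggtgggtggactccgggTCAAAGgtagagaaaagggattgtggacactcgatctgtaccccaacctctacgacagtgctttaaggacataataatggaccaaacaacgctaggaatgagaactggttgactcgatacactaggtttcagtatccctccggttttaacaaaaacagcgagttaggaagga
Nrp1: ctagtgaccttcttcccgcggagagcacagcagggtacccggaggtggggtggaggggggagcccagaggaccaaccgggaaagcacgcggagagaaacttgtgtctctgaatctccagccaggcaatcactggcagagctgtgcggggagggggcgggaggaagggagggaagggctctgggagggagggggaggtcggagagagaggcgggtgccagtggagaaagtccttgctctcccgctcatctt

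The letters occurred in 1 of these 3 windows, that of Etv1. RefSeq promoters were listed for 31 of the 43 genes, and 2 of the 31 windows held the core, 6.45%, against 14.1% of 27025 genes. A match of letters is a description, and no match says only that they are not in this window.

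Some of the largest rises rest on few UMIs. Prr5l held 9 and 34 UMIs in mutants and 0 and 2 in controls, a ratio of 18.5 with a 95% exact counting interval of 4.82 to 158. Tox, which codes for a nuclear HMG-box protein, held 10 and 24 against 1 and 1, a ratio of 14.6 (3.75 to 126). Simc1 held 7 and 41 against 0 and 4 UMIs (3.31 ± 0.69, FDR 0.0455). None of these 3 genes passed without mutant 1 (FDR 0.105, 0.383 and 0.0869 in this order). Asic2, a proton-gated cation channel, rested on more. It was at 348 and 379 CPM in mutants against 80.3 and 103 CPM in controls (log2 difference 2.01 ± 0.26, FDR 0.00586). With possible doublets left out it did not pass (1.40, FDR 0.285). It passed with DESeq2 and without any 1 mouse except mutant 2 (FDR 0.114).

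Oligodendrocyte genes moved with the mutants. Of 6 oligodendrocyte markers, 3 were tested and 2 were higher, among them the transcription factor gene St18 (53.6 and 51.5 CPM in mutants, 14.6 and 9.04 CPM in controls). Their summed level over all 6 was 279 and 285 CPM in the mutants and 75.5 and 72.3 CPM in the controls. Of the 32 genes that rose, 13 were higher in oligodendrocytes than in mossy nuclei, among them Prr5l, Dock10 and Kirrel3, which was found in 40.5% to 46.6% of oligodendrocyte nuclei. Of the 7287 tested genes matched by symbol, 42.3% were higher in oligodendrocytes. In an alternative chosen after seeing the data, with the 17 nuclei left out that held 3 or more UMIs of these markers, 29 genes were higher and 12 lower, and 30 of the 39 genes still tested were called again. In that fit Kirrel3 differed by 2.95 (FDR 0.00144), Shisa9 by 2.87 (FDR 0.0143), Etv1 by 3.03 (FDR 0.00446) and Vcan remained lower (FDR 0.00777). Leaving out every nucleus with 3 or more UMIs of any of 6 lists of other cell types, with Slc1a2 not counted because neurons transcribe it, removed 62 nuclei, and 5 genes then passed, all of them among the 43. There Kirrel3 differed by 2.93 (FDR 0.0770), Shisa9 by 3.36 (FDR 0.0770) and Etv1 by 2.38 (FDR 0.149), and Vcan was not tested.

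Of the 32 genes that rose, 19 had a higher mean level in granule cells than in mossy nuclei, 17 in CA3 and 20 in CA1. Of 7287 tested genes matched by symbol, 45.8%, 38.1% and 39.1% did. Of the 11 that fell, 0, 2 and 2 did. Kirrel3, Shisa9, Dab1, Itga8 and Kif26b were each highest in granule cells among all types. Marker genes of granule cells did not pass in mossy nuclei in any of the 3 tested cases, and the sum of 10 such markers was 161 and 173 CPM in mutants and 80.3 and 183 CPM in controls. Summed markers of inhibitory neurons were at 188 and 204 CPM in mutants and 58.4 and 562 CPM in controls, where 1 nucleus of control 2 held 267 UMIs of them, and without that nucleus 60 genes passed, including the 42 of the 43 still tested. Summed astrocyte markers were at 322 and 298 against 251 and 197 CPM, and microglia markers at 118 and 69.7 against 53.5 and 63.3 CPM. Summed choroid plexus markers were at 53.6 and 66.5 against 14.6 and 21.7 CPM. The part of astrocyte, microglia and choroid plexus RNA in these results was not tested apart from the alternatives without possible doublets.

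Other pathways showed no call, where 0.59% of all genes tested passed. Of 14 tested Wnt pathway genes, 0 passed, with a median log2 difference of -0.13. Axin2, a feedback target of beta-catenin signalling, held 3 and 21 UMIs in mutants and 8 and 18 in controls (-0.32, FDR 0.888). Wnt3 held 3 and 2 against 9 and 13 UMIs (-2.17, FDR 0.337). Of 10 tested immediate early genes 0 passed. At an unadjusted p below 0.05 in the same edgeR test, 3 of the 10 were lower and 0 higher, against 4.62% and 6.09% of all genes tested. Arc was at 26.8 and 13.9 CPM in mutants and 92.5 and 30.7 CPM in controls (-1.79 ± 0.56, FDR 0.210). Bdnf was at 85.8 and 33.2 against 134 and 95.8 CPM (-1.24, FDR 0.230). Among 6 tested neuropeptide and receptor genes, 2 were below both controls in both mutants without passing. They were Nmb (0 and 5 UMIs in mutants, 11 and 12 in controls, FDR 0.210) and Cck (150 and 139 against 224 and 325 CPM, FDR 0.175). Of all genes tested, 40.6% had both mutants outside the control range. Of 12 tested neurotrophin and growth factor genes, 3 injury and stress genes, 13 neuromodulator receptor genes and 10 glutamatergic identity genes, none passed. The study, with another test over single nuclei, reported only Trps1 and Cntnap5a as changed, in a subset of excitatory neurons, and no gene in mossy cells. In the mossy sums used here, Trps1 and Cntnap5a differed by -0.26 (FDR 0.637) and 0.94 (FDR 0.244).

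Whether these differences were shared with pyramidal cells of the same mice was tested as the genotype effect in mossy cells minus that in CA3 or CA1. Against CA3, 39 genes had a higher and 51 a lower effect in mossy cells (0.303% and 0.396% of 12884 genes), and against CA1 101 and 55 (0.656% and 0.357% of 15408). Either way these are 0.699% and 1.01% of genes. Of the 43 genes called in mossy cells, 24 passed against CA3 and 38 against CA1, which is 24 of the 90 and 38 of the 156 genes that passed. Both tests use the same mossy nuclei, and the 43 genes were chosen for the mossy effect that is the first term of each difference. The overlap therefore follows in part from that choice. Without mutant 2 the counts were 34 and 47, without control 1 45 and 40, and without mutant 1 139 and 132. With pyramidal nuclei drawn to the number of mossy nuclei, 69 genes in all passed against CA3 and 24 against CA1, so that not all of the 38 passed there. Kirrel3 rose by 3.13 in mossy cells, against 1.03 (FDR 0.353) in CA3 and 0.57 in CA1. The difference from CA3 was 2.07 ± 0.29 (FDR 3.24e-05). Shisa9 differed from its effect in CA3 by 2.30 ± 0.39 (FDR 0.000595), and Nrp1 by 1.05 ± 0.22 (FDR 0.00918). Kcnn3 passed against neither, with differences of 1.26 ± 0.38 (FDR 0.160) and 1.19 ± 0.38 (FDR 0.127), and Haghl, Pcdh15 and Itgbl1 did not either.

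**Figure D4:**
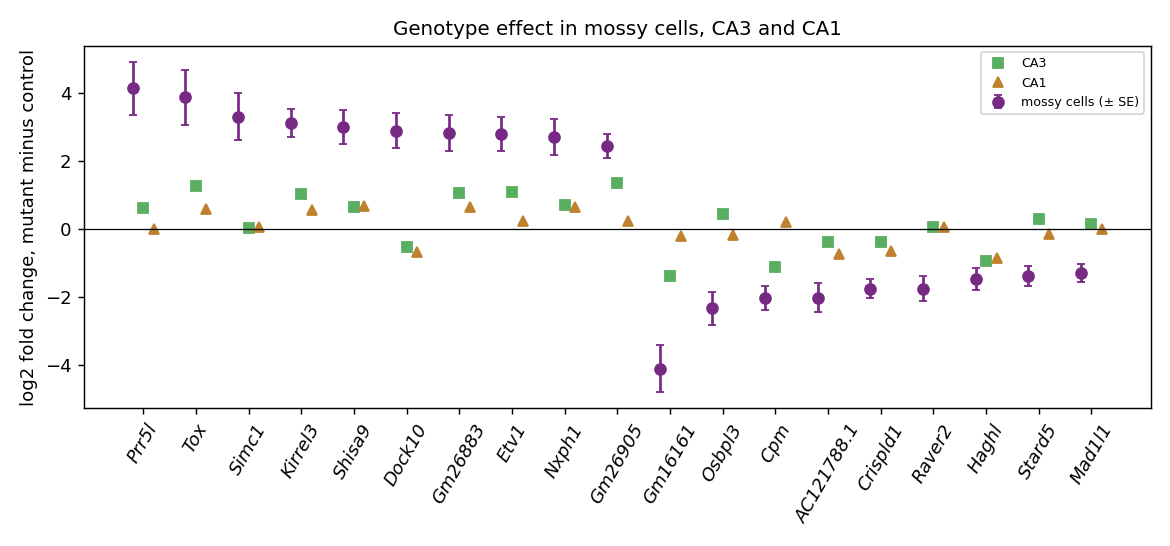
Log2 fold change, mutant minus control, of 19 of the 20 genes with the largest changes, in mossy cells (circles, ± SE), CA3 (squares) and CA1 (triangles) of the same mice; Vcan, at 0 in both mutants, is not drawn. The mossy cell value of each rise lies above its CA3 and CA1 values, and that of each fall lies below them. The genes were chosen for their mossy cell change, so this is a description.

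The genotype effect on Cpne9 differed between the same 2 targets of granule cells. In mossy cells Cpne9 did not pass, with a log2 difference of -0.26 ± 0.28. It was at 113 and 203 CPM in mutants and 202 and 212 CPM in controls, so mutant 1 was below the other mice. In CA3 the normalised level was 23.1 and 24.1 CPM in mutants and 67.9 and 49.7 CPM in controls, and the difference of -1.31 did not pass on its own (FDR 0.145). The mossy effect exceeded that in CA3 by 1.05 ± 0.25 (FDR 0.0263). Among axon guidance genes, Sema5b (a semaphorin) and Ephb1 (an ephrin receptor) had effects 3.27 ± 0.41 and 2.33 ± 0.35 greater in mossy cells than in CA3 (FDR 1.06e-05 and 0.000105). Sema5b was at 26.8 and 57.9 CPM in mutant and 9.74 and 21.7 CPM in control mossy nuclei, with a log2 difference of 1.59 there and -1.75 in CA3. C1ql3, a secreted organiser of granule cell synapses, had an effect 1.40 ± 0.24 greater in mossy cells (FDR 0.000595), where it differed by 0.20 against -1.28 in CA3.

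The called genes were also summed in each nucleus. The sums were not scaled by gene, so genes of high level weigh most, and the spread of single genes over nuclei is not shown. Summed over 30 risen genes (oligodendrocyte markers left out), the median nucleus held 42.6 and 54.5 UMIs per 10000 in mutants and 14.0 and 21.1 in controls. For the 11 fallen genes the medians were 14.9 and 14.8 in mutants and 42.7 and 48.6 in controls. These genes were chosen on the same nuclei, so the medians are a description. The lowest control nucleus held 18.6 UMIs per 10000 of the fallen genes, and the mutant nuclei ranged from 2.39 to 68.3. Within a mouse, Spearman correlation across nuclei between the 2 sums was -0.00, -0.38, -0.42 and -0.43 in mutant 1 (27 nuclei), mutant 2 (89), control 1 (38) and control 2 (32). Both sums share the nucleus' total.

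**Figure D5:**
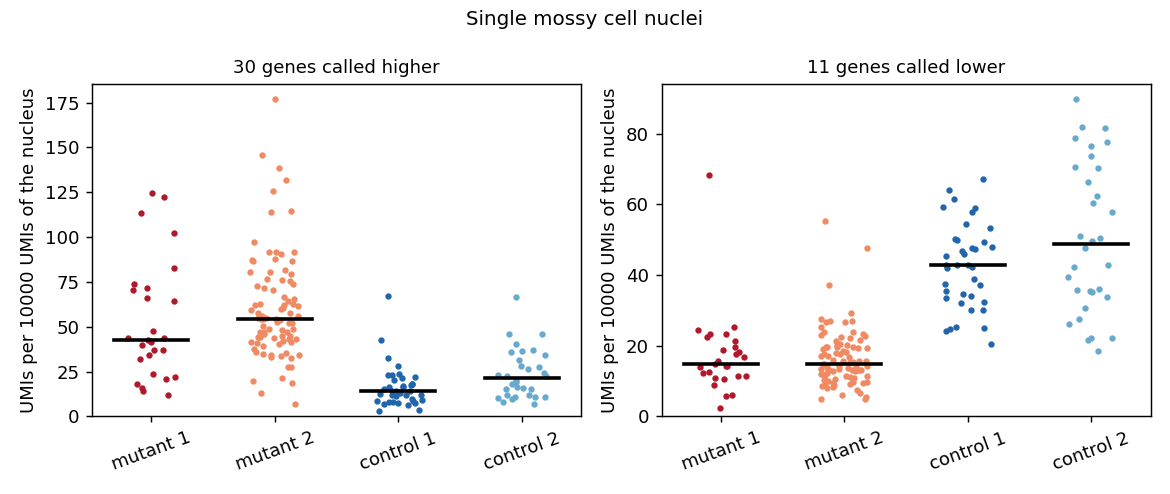
UMIs per 10000 UMIs of the nucleus, for the 30 genes called higher (left, oligodendrocyte markers left out) and the 11 called lower (right), in every mossy nucleus of each mouse; bars are medians. Mutant medians are 42.6 and 54.5 against 14.0 and 21.1 for the risen genes, and 14.9 and 14.8 against 42.7 and 48.6 for the fallen genes.

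In bulk tissue, which holds all cell types, fewer cells of a type and less RNA per cell cannot be told apart. None of the 13 mossy cell markers passed at more than 3-fold and FDR below 0.05, where 0.218% of 20687 genes did. Csf2rb2 was at 4.86 and 2.88 CPM in mutants and 6.63 and 5.50 CPM in controls (-0.65 ± 0.28, FDR 0.298). Calb2, at 38.2 and 15.3 against 33.7 and 31.4 CPM, overlapped between groups (-0.29, FDR 0.768). Gal held 19 and 12 against 42 and 32 counts (-1.38 ± 0.53, FDR 0.252). At FDR below 0.05 and any fold, which 1.21% of genes met, Cpne9 was lower (18.3 and 15.8 against 28.6 and 30.3 CPM; -0.79 ± 0.10, FDR 0.0459) and Ociad2 was higher (135 and 145 against 89.2 and 97.0 CPM; 0.59 ± 0.07, FDR 0.0339). Of the 42 called mossy genes tested in bulk, 2 passed that FDR, both lower in tissue although higher in mutant mossy nuclei: Kif26b (-1.71, FDR 0.0135) and Shisa9 (-0.94, FDR 0.0244). Both were highest in granule cells among the deposited types. Without either control library, 0 genes passed at more than 3-fold in bulk.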

How the data were processed

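The authors prepared snRNAseq libraries with the 10x Genomics 3' v3 kit from both hippocampi of single mice, aligned them to an mm10 index that includes introns with Cell Ranger 3.1.0, clustered the nuclei with Monocle 3 after batch correction and named the clusters. The deposited matrices hold UMI counts per gene and nucleus, which were used here. The deposited bulk files hold expected counts that the authors obtained with RSEM 1.3.0 and Bowtie2 2.2.9, and these were rounded to whole numbers. A deposited matrix of normalised values was not used here.

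UMIs of nuclei named MC were summed per mouse, and 2 mutants were compared with 2 controls by the edgeR 4.0.16 quasi-likelihood test (R 4.3.3, filterByExpr, TMM) with Benjamini-Hochberg adjustment. DESeq2 1.42.0 was an alternative. Thresholds were those of the study for nuclei (fold above 2) and for tissue (fold above 3), with FDR below 0.05. The tests were not those of the study, which used a Monocle 3 regression over single nuclei of each type and EBSeq for tissue. Numbers of calls are therefore not comparable with its own. Differences of effect used sums per mouse and type with mouse as a term. Levels in counts per 1000000 (CPM) are relative to the summed mossy UMIs of a mouse, are not corrected for gene length, and none is compared between genes. Bulk and CA3 normalised CPM are TMM scaled. p-values measure the spread between these mice. Intervals and limits of a count of 0 (3 UMIs) cover counting error only. On simulated data with 200 genes of 7289 changed 4-fold, the mossy cell test recovered 87% with 4 false calls. The simulated counts followed fitted means and the dispersion trend, with no spread of a gene's own and no unusual mouse or nucleus. They do not measure how reliable the calls in the real mossy nuclei are.

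Doublets were not called. Instead nuclei with 3 or more UMIs of a marker list of another cell type were left out in alternatives, 3 of which were chosen after seeing the data. Named genes were the 10 largest rises and falls that passed, the 20 genes most enriched in mossy nuclei among those of at least 50 CPM in every sample, Gal, Calb2, Trps1, Cntnap5a and members of 29 gene lists. Asic2, Dab1, Itga8, Kif26b, Pcdh15, Itgbl1 and 9530059O14Rik were named after their values were seen. The members and the lists were chosen with earlier results of these data known. Gene positions are from GENCODE vM21.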

Additional observations from a re-analysis of the deposited data

Results flagged for a closer look

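The genotype effect of some of the 20 genes changing most in mossy cells differed from that in pyramidal cells of the same mice. The test was that of the difference (edgeR quasi-likelihood interaction, FDR below 0.05). The 20 genes were chosen for the mossy cell change that enters this difference, so their passing follows in part from that choice. Against CA3, the effect in mossy cells was greater, on the log2 scale, for Prr5l (3.62), Simc1 (3.32), Kirrel3 (2.07), Shisa9 (2.30), Dock10 (3.22), Gm26883 (1.94) and Etv1 (1.76). It was lower for Vcan (-10.58), Gm16161 (-2.98), Osbpl3 (-2.78), AC121788.1 (-1.73), Crispld1 (-1.40), Raver2 (-1.86), Stard5 (-1.71) and Mad1l1 (-1.46). Against CA1 it was greater for Prr5l (4.12), Tox (3.77), Simc1 (3.35), Kirrel3 (2.60), Shisa9 (2.41), Dock10 (3.43), Gm26883 (2.54), Etv1 (2.67), Nxph1 (1.95) and Gm26905 (2.17). It was lower for Vcan (-11.31), Gm16161 (-3.99), Osbpl3 (-2.08), Cpm (-2.17), AC121788.1 (-1.31), Crispld1 (-1.19), Raver2 (-1.85), Stard5 (-1.32) and Mad1l1 (-1.41). The Vcan values rest on 0 UMIs in both mutants, depend on the prior count of the fit and give no size. With 2 mice in a group, no sample could be tested as an outlier.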

How the results depend on the processing

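Mutant 2 held 89 of the 116 mutant mossy nuclei. The share of mossy nuclei was 0.40 higher in mutants on the log2 scale, but -0.12 among nuclei other than granule cells, -0.25 among excitatory nuclei other than granule cells and -0.28 with TMM in place of total nuclei. It ranged from -0.019 to 0.72 with 1 mouse left out, and passed under no alternative. The 43 calls in mossy cells were 146 with no filter on low counts, 17 with DESeq2, 19 with nuclei thinned to 2000 UMIs, 2 with possible doublets left out and 5 with Slc1a2 not counted, an alternative chosen after seeing the data. With 1 mouse left out they ranged from 0 to 153. Leaving out nuclei lowers the number of genes tested, and the cause of the other changes was not tested. The samples share only a replicate number (correlation of deviations 0.15 in mossy cells and 0.06 in bulk). With the replicate number as a block 203 genes passed, including all 43. Of the 43 genes, 43 were called again with RLE or no filter, 15 with DESeq2, 8 of 15 tested when thinned, 2 of 26 with possible doublets left out, and 15, 0, 30 and 36 without mutant 1, mutant 2, control 1 and control 2. None reversed. Against CA3, 90 genes became 139 with RLE and 34 to 139 with 1 mouse left out. Against CA1, 156 became 24 with CA1 nuclei drawn to the number of mossy nuclei and 40 to 132 with 1 mouse left out. No paired fit was run for these differences, which already hold mouse as a term. In bulk tissue, 45 calls became 313 with no filter, 120 with DESeq2, 26 with the replicate block and 0 to 395 with 1 mouse left out. The median share of mossy nuclei with a Csf2rb2 UMI was 58.0%, and 16.8% after thinning.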

Other observations

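Cphx3, which was chosen after its values were seen, held 0 UMIs in the mossy nuclei of both mutants and 6 and 39 in those of controls 1 and 2. It was removed by the filter on low counts from the comparison within mossy cells. Mag, a myelin gene, held 5 and 11 UMIs in mutants and 0 in both controls. Ttr, the main transcript of choroid plexus, held 45 UMIs in the mossy nuclei of mutant 2, 1 in control 1 and 0 in the other mice, while the summed level of 6 choroid plexus markers was 53.6 CPM in mutant 1 and 66.5 CPM in mutant 2.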
